A study of Mus musculus with 4 samples.

Results

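Granins and the enzymes that cut prohormones were described in mouse stomach, as 8 of 9 listed genes among 22180 measured genes. The genes were chosen by name: 4 granins (Chga, Chgb, Scg2 and Scg3), 2 small proteins that accompany the convertases (Scg5 and Pcsk1n) and 2 processing enzymes (Pcsk1 and Cpe). Pcsk2, the remaining listed enzyme, was not analysed here, since the probe annotation used named no probe set for it. Each measured gene had 1 probe set with a single gene symbol. Total RNA of washed, minced stomach was hybridised to 4 Affymetrix arrays, 2 from Hdc-/- mice and 2 from Hdc+/+ mice. All were FVB mice, 1 year old, kept specific-pathogen-free on 1 diet, and the labels give no region of the stomach. Hdc encodes histidine decarboxylase, which makes histamine, and the labels do not describe the mutant allele. Arrays of 1 genotype are titled as biological replicates with no animal named, so a p-value reflects array-to-array spread, part of which may be technical.

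Endocrine cells of the stomach lining pack peptides and amines into dense-core granules. Granins are acidic proteins that condense with calcium in the trans-Golgi network and help to form the granule core, and chromogranin A is a widely used tissue marker of such cells, including the enterochromaffin-like cells that store gastric histamine. Prohormones sorted into the same granules are cut at pairs of basic residues by the convertases encoded by Pcsk1 and Pcsk2, after which carboxypeptidase E, the product of Cpe, trims the exposed basic residues. The same genes are active in neurons, so a stomach sample can carry their RNA from endocrine cells and from the enteric nervous system.

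Promoter sequence is shown for the genes on which the results turn. Chga, Chgb and Pcsk1 had the largest differences between the genotypes, while Scg2, which also holds a marked match, had almost none. The windows are the 250 bases before a transcript start in the RefSeq reference of build GRCm38.p6, which is not the FVB genome, written 5′ to 3′ on the gene's strand. They lie at chr12:102554691-102554940 (plus strand, Chga), chr2:132781392-132781641 (plus strand, Chgb), chr13:75089607-75089856 (plus strand, Pcsk1) and chr1:79440027-79440276 (minus strand, Scg2). For Pcsk1 and Scg3 the start used lies inside the annotated gene, whose outermost start is farther upstream and was not searched. Capitals mark a match to TGACGTNA, the letters of a cyclic AMP response element, searched on both strands.
Chga: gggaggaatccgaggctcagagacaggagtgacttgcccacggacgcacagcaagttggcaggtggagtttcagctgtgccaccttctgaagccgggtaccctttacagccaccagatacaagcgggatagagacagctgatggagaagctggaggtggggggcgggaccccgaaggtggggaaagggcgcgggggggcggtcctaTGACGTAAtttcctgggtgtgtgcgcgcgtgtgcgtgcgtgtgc
Chgb: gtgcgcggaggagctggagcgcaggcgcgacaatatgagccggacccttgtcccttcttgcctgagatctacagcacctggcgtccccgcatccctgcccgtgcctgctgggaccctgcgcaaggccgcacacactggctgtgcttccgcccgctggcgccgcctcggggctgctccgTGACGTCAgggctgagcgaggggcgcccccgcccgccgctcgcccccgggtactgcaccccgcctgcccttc
Pcsk1: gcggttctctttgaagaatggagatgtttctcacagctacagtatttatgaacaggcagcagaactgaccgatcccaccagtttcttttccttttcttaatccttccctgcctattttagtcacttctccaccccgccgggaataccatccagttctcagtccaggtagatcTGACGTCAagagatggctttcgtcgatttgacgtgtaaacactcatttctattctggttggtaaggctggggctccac
Scg2: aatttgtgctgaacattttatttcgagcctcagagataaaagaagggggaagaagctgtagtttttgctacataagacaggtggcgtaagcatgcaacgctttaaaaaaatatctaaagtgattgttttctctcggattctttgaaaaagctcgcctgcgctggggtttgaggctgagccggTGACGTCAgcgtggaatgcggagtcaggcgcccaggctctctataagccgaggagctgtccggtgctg

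The match began 44 bases before the start in Chga, 72 bases before it in Chgb, 78 bases before it in Pcsk1 and 68 bases before it in Scg2. It read TGACGTAA in Chga and TGACGTCA in Chgb, Pcsk1 and Scg2. Windows were held for 7 of the 8 measured genes, all but Cpe, and 4 of the 7 had a match, against 2.65% of 27025 windows of the same length, taken as 1 per gene. Scg3, Scg5 and Pcsk1n had none. A match to GGGCGG, the core of a GC box, stood in 4 of the 7 windows (Chga, Chgb, Scg5 and Pcsk1n) against 32.9% of all windows, and 0 of these overlapped the element in capitals. TATAAA, the letters of a TATA box, stood in 0 of the 7 against 13.0% of all windows. Only these exact letters were searched, so variants of a TATA box were not counted. A match describes letters in this window and does not show that a factor binds there.

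Before the genes were compared, the arrays were checked for material of other organs and for the genotype. Hdc itself read 3.77 and 4.06 on the knockout-labelled arrays, against 3.99 and 3.82 on the wild-type-labelled arrays, all in log2 units. Hdc lay at the 33.7th percentile of genes by mean value, and where its probe set lies relative to the mutation was not known. The genotype labels therefore could not be checked from Hdc, and the arrays are called knockout-labelled and wild-type-labelled. The 10 markers of gastric epithelium read at least 8.40 on all arrays, with a median log2 difference of -0.02. Of these, 2 chief cell genes read higher on both knockout-labelled arrays at an unadjusted p under 0.05, against 3.68% of all genes. Cblif differed by 1.07 (SE 0.25, limma adjusted p = 0.396) and Pgc, named after its value was seen, by 0.64 (SE 0.25, adjusted p = 0.582). Their part in the granin values was not tested. All 12 hepatocyte markers read lower on both knockout-labelled arrays than on both wild-type-labelled arrays, as did 17.6% of all genes. Wild-type-labelled array 2 stood apart, with an acinar pancreas median 2.09 above the gene means, against -1.14 to -0.61 on the other arrays, so the main values are also given without it.

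None of the 8 genes passed the test over all genes, and Chga, Pcsk1 and Chgb stood higher on the knockout-labelled arrays at an unadjusted p under 0.05. By limma with Benjamini-Hochberg adjustment, 0 of 8 passed an adjusted p of 0.05, against 0.00451% of all genes. At an unadjusted p under 0.05, 3 of the 8 were higher, against 3.68% of all genes, and 0 were lower, against 4.87% of all genes. The arrays of the 2 genotypes did not overlap for 4 of the 8 genes in the higher direction (Chga, Chgb, Scg3 and Pcsk1), against 21.5% of all genes. In the lower direction this held for 1 gene (Scg5), against 17.6% of all genes. The genes were chosen with earlier results of these data known, so these counts are a description and not an independent test. In a whole-tissue sample, a change in the number of endocrine cells and a change in RNA per cell cannot be told apart.

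**Figure D1:**
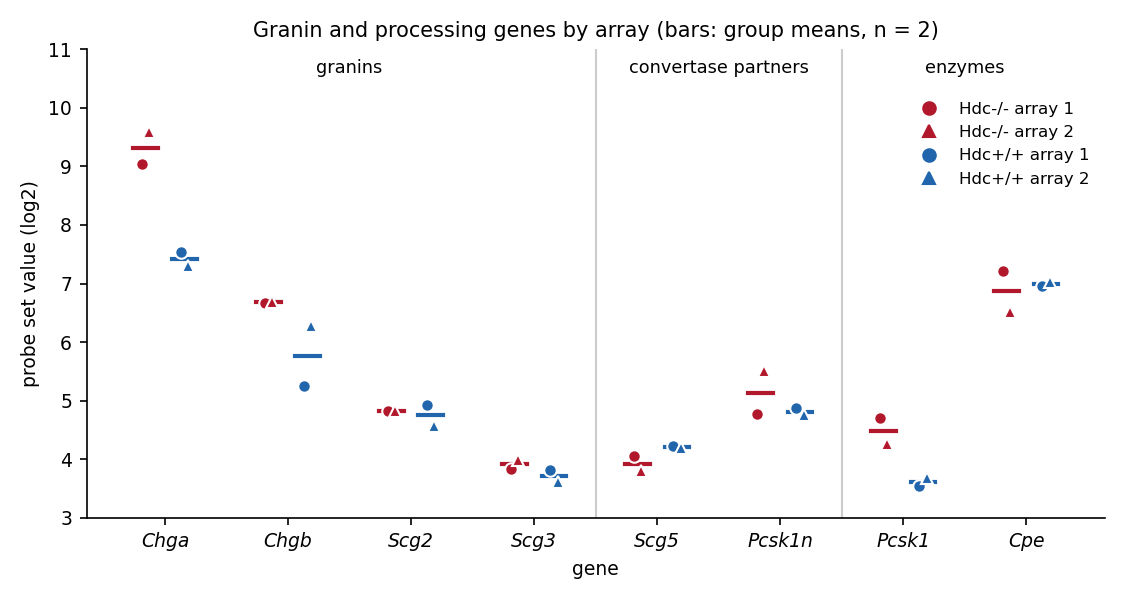
The log2 probe set value (vertical axis) of each gene (horizontal axis) is plotted for the 2 Hdc-/- arrays (red, left) and the 2 Hdc+/+ arrays (blue, right), with circles for array 1, triangles for array 2 and bars for group means. Chga reads 9.05 and 9.58 in Hdc-/- and 7.54 and 7.30 in Hdc+/+, while the Hdc-/- points of Cpe lie on either side of its Hdc+/+ points.

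Among the granins, Chga had the largest difference. Chga, which encodes chromogranin A, read 9.05 and 9.58 on the knockout-labelled arrays, against 7.54 and 7.30 on the wild-type-labelled arrays. Both knockout-labelled values lay at least 1.51 above the higher wild-type-labelled value, and the spread within a genotype was 0.53 and 0.23. The log2 difference was 1.89 (SE 0.23, 95% interval 1.31 to 2.47, limma adjusted p = 0.247). It ranked 31 of 22180 genes by the size of a positive difference and 21 by unadjusted p. Leaving out 1 array at a time gave 1.63 to 2.16, and it was 1.77 without wild-type-labelled array 2.

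Chgb, the gene of chromogranin B, another granule core protein, read 6.67 and 6.69 on the knockout-labelled arrays, against 5.26 and 6.27 on the wild-type-labelled arrays. The knockout-labelled values were nearly equal, and the wild-type-labelled arrays lay 1.01 apart, more than the difference between the groups. That difference was 0.92 (SE 0.34, 95% interval 0.07 to 1.76, limma adjusted p = 0.555). Its size depended on the wild-type-labelled arrays, being 0.41 without array 1 and 1.42 without array 2. Its unadjusted p was under 0.05 with wild-type-labelled array 2 left out, and not with any of the other arrays left out.

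The other granins differed little. Scg2, the gene of secretogranin II, the precursor of the peptide secretoneurin, read 4.82 on both knockout-labelled arrays, against 4.93 and 4.57 on the wild-type-labelled arrays. Its groups overlapped, and the log2 difference was 0.07 (SE 0.19, 95% interval -0.41 to 0.54, adjusted p = 0.963). Scg3 encodes secretogranin III, which binds chromogranin A at the granule membrane, and read 3.84 and 3.98 on the knockout-labelled arrays, against 3.82 and 3.62 on the wild-type-labelled arrays. The gap between its groups was 0.02, far smaller than the spread within either, and the log2 difference was 0.19 (SE 0.17, adjusted p = 0.812). Scg3 lay at the 31.7th percentile of genes by mean value, and no background values were used here.

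The convertase partners gave differences of opposite sign. Scg5 encodes 7B2, the chaperone that the convertase of Pcsk2 needs to mature, and it read 4.06 and 3.79 on the knockout-labelled arrays, against 4.23 and 4.20 on the wild-type-labelled arrays. It was the 1 gene of the 8 whose knockout-labelled values both lay below the wild-type-labelled values, by at least 0.14, with a log2 difference of -0.29 (SE 0.17, 95% interval -0.72 to 0.15, adjusted p = 0.699). Pcsk1n encodes proSAAS, an inhibitor of the convertase of Pcsk1, and read 4.77 and 5.51 on the knockout-labelled arrays, against 4.87 and 4.75 on the wild-type-labelled arrays. Its groups overlapped, since the higher level came from knockout-labelled array 2 alone. The log2 difference was 0.33 (SE 0.27, adjusted p = 0.795), and -0.04 without that array.

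The 2 processing enzymes had different patterns. Pcsk1, the gene of prohormone convertase 1/3, read 4.71 and 4.25 on the knockout-labelled arrays, against 3.55 and 3.68 on the wild-type-labelled arrays. Its groups were separated by 0.57, and the log2 difference was 0.87 or 1.82-fold (SE 0.21, 95% interval 0.34 to 1.39, limma adjusted p = 0.396). With each array left out in turn it ran from 0.64 to 1.09. The wild-type-labelled values lay at percentiles 25.6 and 30.1 of the genes on their arrays, so Pcsk1 was dim where it was lowest.

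Cpe, which trims basic residues after the convertases have cut, read 7.21 and 6.52 on the knockout-labelled arrays, against 6.96 and 7.03 on the wild-type-labelled arrays. The knockout-labelled arrays lay on either side of the wild-type-labelled ones. The log2 difference was -0.13 (SE 0.26, 95% interval -0.78 to 0.52, adjusted p = 0.939). Leaving out knockout-labelled array 1 gave -0.48, and leaving out its partner array gave 0.22.

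**Figure D2:**
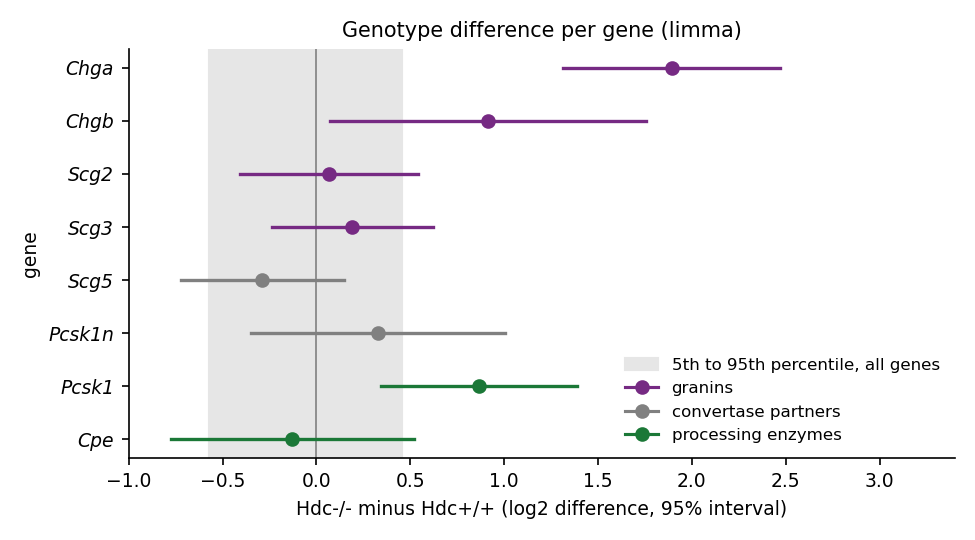
The log2 difference, Hdc-/- minus Hdc+/+ (horizontal axis), is plotted for each gene (vertical axis) with its 95% interval from limma, coloured by role, and the grey band spans the 5th to the 95th percentile of all genes (-0.57 to 0.46). The intervals of Chga, Chgb and Pcsk1 lie above 0 before adjustment over all genes, and the other 5 include 0.

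Granins were then compared with processing enzymes by genotype and array, with each gene centred on its own mean over the 4 arrays because levels of different probe sets cannot be set against each other. The granin median was 0.24 and 0.32 on the knockout-labelled arrays, against -0.41 and -0.21 on the wild-type-labelled arrays. The median of Pcsk1 and Cpe was 0.47 and -0.10 on the knockout-labelled arrays, against -0.23 and -0.13 on the wild-type-labelled arrays. Granins minus enzymes was -0.23 and 0.42 on the knockout-labelled arrays, against -0.18 and -0.07 on the wild-type-labelled arrays, so the groups overlapped. The median difference between the genotypes was 0.55 for granins and 0.37 for enzymes, 0.19 apart, which is less than the standard deviation of 0.46 between the knockout-labelled arrays. Leaving out knockout-labelled array 2 gave -0.14, and leaving out its partner array gave 0.51. It was -0.11 with Scg5 and Pcsk1n counted as granins, 0.45 with them counted as processing genes and 0.40 with means in place of medians, so a difference between the classes was not detectable with these arrays.

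**Figure D3:**
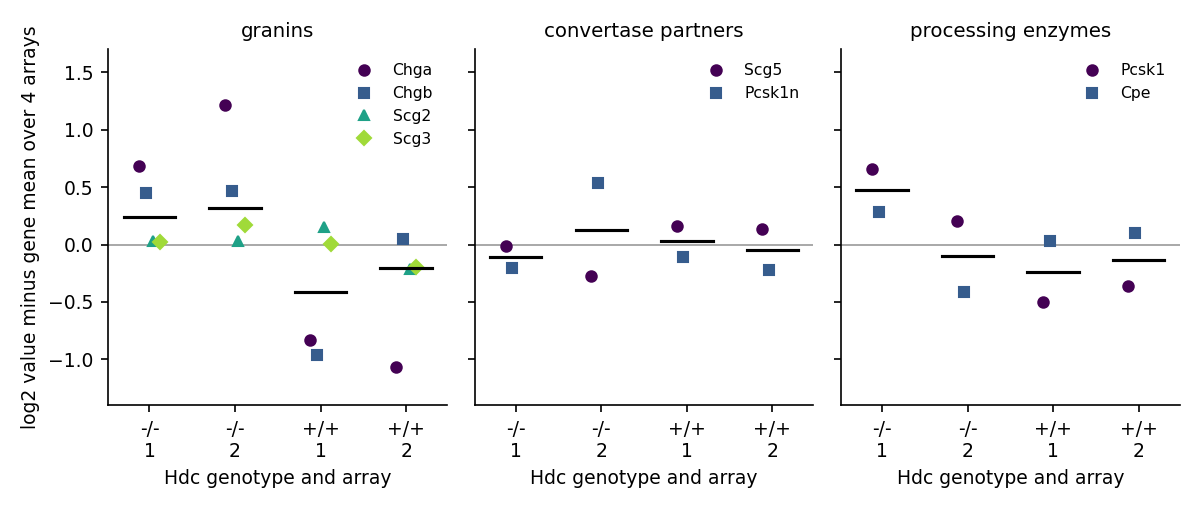
Each gene's log2 value minus its mean over the 4 arrays (vertical axis) is plotted by Hdc genotype and array (horizontal axis) in a panel per role, with a black bar for the median of the role. Chga and Chgb lie farther from 0 than Scg2 and Scg3 on every array but Hdc+/+ array 2. There Chgb reads 0.05, against -0.22 for Scg2 and -0.20 for Scg3. On Hdc-/- array 2 Pcsk1 reads 0.21 and Cpe -0.41.

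Pattern likeness to Chga was measured as the Euclidean distance between centred log2 values over the 4 arrays. These values hold the genotype difference, so genes with a difference like that of Chga lie near it. The distance is therefore not separate evidence. The 5 nearest of all genes were Snord1b (distance 0.21), Pappa2 (0.27), Snora73b (0.37), AF357426 (0.43) and Snord99 (0.50). Snord1b, Snora73b and Snord99 are small nucleolar RNA genes, and Pappa2 encodes a protease of insulin-like growth factor binding proteins. What their likeness to Chga reflects was not tested. Slc18a2, which encodes the vesicular monoamine transporter of histamine-storing cells, was looked up by name and ranked 8 (distance 0.61). It read 6.38 on both knockout-labelled arrays, against 5.15 and 4.77 on the wild-type-labelled arrays. The 18 measured endocrine markers, of which Slc18a2 is 1, had a median log2 difference of 0.09, with 13 above 0 and 5 below. Among the granins and processing genes the nearest was Pcsk1, at rank 206 (distance 1.27), then Chgb at rank 378 (distance 1.36), while Scg5 stood at rank 19124.

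A list of 10 further genes, Vgf and 9 that process prohormones or proproteins, held differences in both directions, and by limma 0 of the 10 passed over all genes. Without adjustment, 1 (Furin) read higher and 2 (Qpct and Pcsk6) read lower on the knockout-labelled arrays at p under 0.05, against 3.68% of all genes higher and 4.87% lower. Their median log2 difference was 0.18, against 0.02 over all genes. Furin, the convertase of the constitutive secretory pathway, read 8.31 and 8.46 on the knockout-labelled arrays, against 7.77 and 7.41 on the wild-type-labelled arrays (difference 0.79, SE 0.19, adjusted p = 0.400). Vgf, the granin-family gene of this list, differed by 0.35 with overlapping groups. At the low end, Qpct, which encodes the enzyme that forms amino-terminal pyroglutamate, differed by -0.66 (SE 0.18, adjusted p = 0.444). Pcsk6, a convertase gene named after its value was seen, read 6.01 and 6.15 on the knockout-labelled arrays, against 6.46 and 6.53 on the wild-type-labelled arrays (difference -0.41, SE 0.16, adjusted p = 0.579). Pcsk5, another convertase gene, differed by -0.67, and that followed wild-type-labelled array 2, where it read 5.62 against 4.27 to 4.28 on the other arrays.

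Genes of the granule membrane and of exocytosis were measured for 22 of 23 listed, and by limma 0 passed over all genes and 0 reached an unadjusted p under 0.05. The median log2 difference was 0.17, with 17 of 22 (77.3%) above 0, against 54.1% of all genes. The groups did not overlap for 7 genes in the higher direction (31.8%, against 21.5% of all genes) and for 3 in the lower one (13.6%, against 17.6%). Snap25, a membrane fusion protein of exocytosis, had the largest difference, with values of 5.77 and 6.20 on the knockout-labelled arrays, against 5.60 and 5.39 on the wild-type-labelled arrays (difference 0.48, SE 0.21, adjusted p = 0.602). Cadps2, a priming factor of granule release, differed by 0.40 with overlapping groups. The small GTPase genes Rab27a and Rab27b had the lowest values, each at -0.34.

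**Figure D4:**
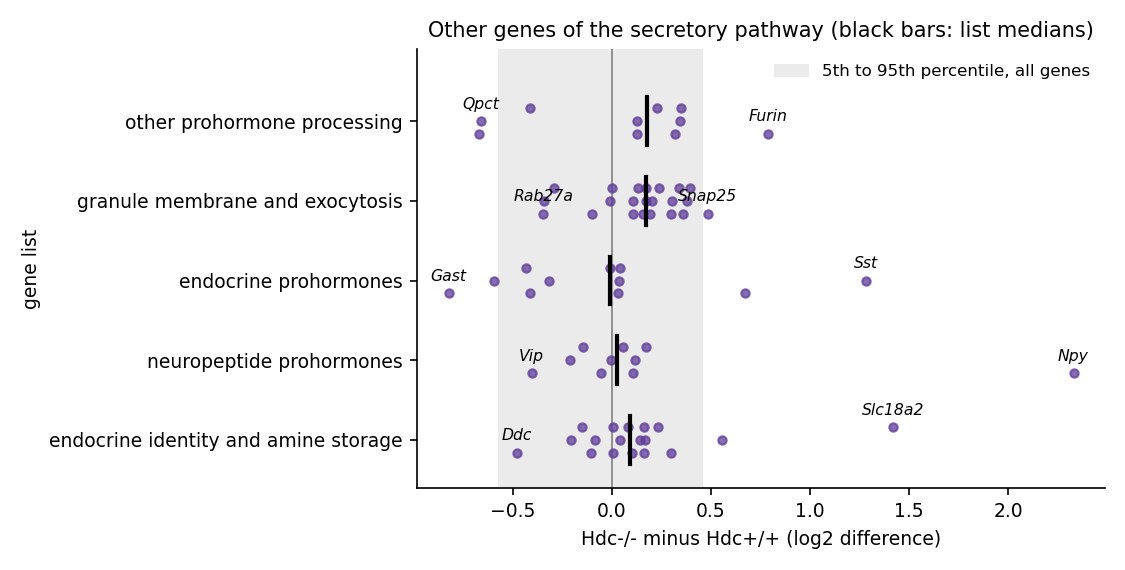
Log2 differences, Hdc-/- minus Hdc+/+ (horizontal axis), are plotted for 5 gene lists (vertical axis) with 1 point a gene, black bars for list medians and a grey band from the 5th to the 95th percentile of all genes. Npy at 2.33, Slc18a2 at 1.42 and Sst at 1.28 lie farthest to the right, and the list medians lie between -0.01 and 0.18.

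Prohormones that these enzymes act on gave mixed values. Among 11 prohormones of gut endocrine cells, 0 passed over all genes by limma, with 1 (Sct) lower and 0 higher at an unadjusted p under 0.05, against 4.87% of all genes lower and 3.68% higher. Their median log2 difference was -0.01. Sst, the somatostatin gene of D cells, read 7.85 and 9.63 on the knockout-labelled arrays, against 7.84 and 7.08 on the wild-type-labelled arrays (difference 1.28, SE 0.60, adjusted p = 0.624). Ghrl, the ghrelin gene, read 9.74 and 10.88 on the knockout-labelled arrays, against 9.76 and 9.51 on the wild-type-labelled arrays. For both genes knockout-labelled array 2 held the high value, and array 1 lay close to the wild-type-labelled range. Gast, the gastrin gene of antral G cells, read 5.18 and 6.87 on the knockout-labelled arrays, against 6.996 and 6.70 on the wild-type-labelled arrays, so the low value came from knockout-labelled array 1. On that array the mucous neck and gland gene Muc6 read 11.94, against 8.90 on knockout-labelled array 2 and 8.40 and 9.30 on the wild-type-labelled arrays. Its part in these values was not tested. Sct, the secretin gene, differed by -0.59 (SE 0.22, adjusted p = 0.562).

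Among 10 measured neuropeptide prohormones the median was 0.03, and 0 passed over all genes by limma. Npy, the gene of neuropeptide Y, was the 1 of 10 with an unadjusted p under 0.05 (3.68% of all genes in that direction), and it read 7.92 and 7.01 on the knockout-labelled arrays, against 5.27 and 4.998 on the wild-type-labelled arrays. Its groups lay well apart, with a log2 difference of 2.33 (SE 0.32, adjusted p = 0.247). Grp, the gastrin-releasing peptide gene, stood next at 0.17 with overlapping groups. Vip, the gene of vasoactive intestinal peptide, differed by -0.40, and Adcyap1, the gene of a related neuropeptide, by -0.21.

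Markers of endocrine cells other than granins had differences of -0.48 to 1.42, the highest being that of Slc18a2. Of 20 listed markers 18 were measured, and 0 were called over all genes by limma. Slc18a2 was the 1 of 18 past an unadjusted p of 0.05, a share near the 3.68% of all genes that read higher at that level. The median log2 difference was 0.09. Their summed linear signal was 490.0 and 485.3 on the knockout-labelled arrays, against 421.9 and 422.5 on the wild-type-labelled arrays. Most of that gap came from Slc18a2, and without it, a sum chosen after seeing the data, the other 17 came to 406.9 and 401.8 on the knockout-labelled arrays, against 386.5 and 395.2 on the wild-type-labelled arrays. The endocrine transcription factor gene St18 differed by 0.55 (SE 0.23). Ddc, which makes biogenic amines from amino acids, differed by -0.48 (SE 0.20), and Cckbr, the gastrin receptor gene of enterochromaffin-like and parietal cells, by -0.21 (SE 0.21).

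Enteric neurons, in which granin genes are also active, and enteric glia were followed by their own markers. Of 17 enteric neuron markers 15 were measured, and the median log2 difference was -0.02. Ret, a receptor gene of enteric neurons (0.83), and Stmn2 (-0.46) reached an unadjusted p under 0.05 (3.68% of all genes higher, 4.87% lower), Stmn3 (0.42) and Gap43 (-0.25) did not, and 0 passed over all genes by limma. The neuron markers summed to 305.1 and 327.1 on the knockout-labelled arrays, against 304.5 and 270.8 on the wild-type-labelled arrays, in linear signal. The 5 measured glial markers of 7 had a median of 0.07, and summed to 601.5 and 691.1 on the knockout-labelled arrays, against 591.6 and 642.7 on the wild-type-labelled arrays. Most of each glial sum came from Erbb3, named after the sums were seen, so the sum mainly followed this gene. Erbb3 read 9.10 and 9.31 on the knockout-labelled arrays, against 9.07 and 9.21 on the wild-type-labelled arrays. No other measured glial marker read above 4.72.

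Of 9 pancreatic islet markers 8 were measured, with a median of -0.01, and the list summed to 161.1 and 196.7 on the knockout-labelled arrays, against 193.5 and 435.2 on the wild-type-labelled arrays. The high sum came from Slc2a2, a glucose transporter gene also active in liver, which read 8.13 on wild-type-labelled array 2. Ins2, an insulin gene, read 3.505 and 4.22 on the knockout-labelled arrays, against 3.59 and 3.33 on the wild-type-labelled arrays, lowest on that array 2. The lowest islet value was 2.24, and whether the dim markers stood above background was not tested.

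Liver and intestinal markers read higher in sum on both wild-type-labelled arrays, and acinar markers on wild-type-labelled array 2 alone. The 12 hepatocyte markers had a median log2 difference of -3.73, and summed to 644.5 and 856.0 on the knockout-labelled arrays, against 4708 and 13987 on the wild-type-labelled arrays. The 14 intestinal markers had a median of -1.07, and summed to 801.2 and 652.8 on the knockout-labelled arrays, against 1488 and 6178 on the wild-type-labelled arrays. The 10 measured acinar markers of 13 had a median of -1.11, and summed to 4583 and 5161 on the knockout-labelled arrays, against 4174 and 8970 on the wild-type-labelled arrays. On every array but wild-type-labelled array 2, most of the acinar sum came from Clps. Clps read 12.02 and 12.20 on the knockout-labelled arrays, against 11.93 and 11.38 on the wild-type-labelled arrays. Among the hepatocyte markers Alb, the albumin gene, read 4.896 and 4.71 on the knockout-labelled arrays, against 11.17 and 12.48 on the wild-type-labelled arrays. Their part in the granin and Pcsk1 values was not tested. With wild-type-labelled array 2 left out, the differences were 1.77 for Chga, 1.42 for Chgb and 0.93 for Pcsk1. Wild-type-labelled array 1, which remained, also read high for hepatocyte markers (sum 4708). Leaving out array 2 therefore does not set knockout-labelled arrays against an array free of them.

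**Figure D5:**
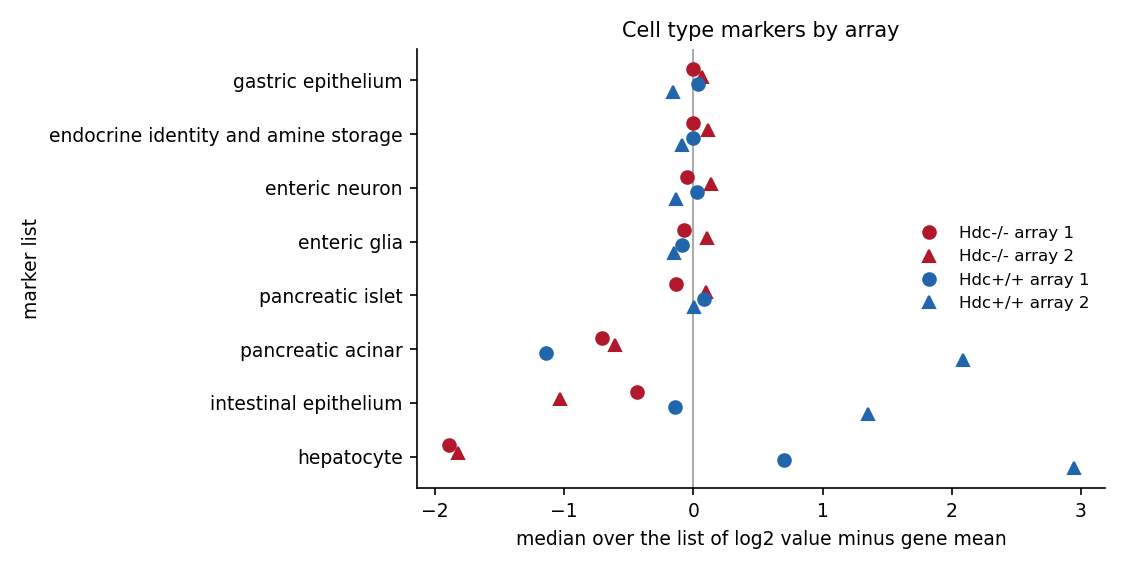
For each marker list (vertical axis) the median over its genes of the log2 value minus the gene mean (horizontal axis) is plotted for the 2 Hdc-/- arrays (red) and the 2 Hdc+/+ arrays (blue), circles for array 1 and triangles for array 2. Hepatocyte medians are -1.90 and -1.82 in Hdc-/- and 0.70 and 2.94 in Hdc+/+, while endocrine, neuron, glia and islet medians lie between -0.15 and 0.14.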

How the data were processed

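The deposited values are on a log2 scale, which the values' range bears out. RMA, oligo and Affymetrix Power Tools appear in the submitters' processing notes, with no version, and the authors' genome build was not given there. RMA subtracts background and quantile-normalizes, so a shift common to a whole array is removed. Of 41345 probe sets, the 23521 with 1 gene symbol in GEO's platform annotation were kept, and the brightest stood for a gene with several, which left 22180 genes. Signal over background was not used, and 4 arrays limit the precision.

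Genotypes were compared across all genes with limma 3.58.1 in R 4.3.3 (lmFit, eBayes, no covariate, Benjamini-Hochberg adjustment, threshold 0.05). The fit was tested on simulated data. Differences are Hdc-/- minus Hdc+/+. All 9 listed genes are named, each gene list by counts and its 2 highest and 2 lowest genes, and Chga with its 5 nearest genes. In the glia, islet and other-organ lists only some of these are named. The genes and lists were chosen with earlier results of these data known. Alternatives changed the filter, probe sets, scaling, prior, block and arrays.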

Additional observations from a re-analysis of the deposited data

How the results depend on the processing

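None of the 8 granin and processing genes passed the adjusted threshold under any alternative fit, and 1 (Chga) met an unadjusted p under 0.05 with a log2 difference of at least 1, as did 479 of all genes. Over the alternatives the limma adjusted p of Chga ran from 0.123 to 0.716. Of 101 recomputed differences 3 changed sign, each with 1 array left out: Scg2 ran from -0.12 to 0.25, Pcsk1n from -0.043 to 0.70 and Cpe from -0.48 to 0.22 over the arrays left out. Granins minus enzymes ran from -0.14 to 0.51 in the same way. Over all genes limma called 1, against 5 with a trended and robust prior, 0 when every probe set was tested, and 0 to 161 with an array left out (161 without wild-type-labelled array 1), where the lone array was taken to vary like the other group. Same-numbered arrays deviated with a correlation of -0.12, and nothing says that they are paired. With a replicate block limma called 7 of all genes and 0 of the 8. With the numbers crossed, chosen after seeing the data, it called 0. At an unadjusted p under 0.05 Chga and Pcsk1 stayed when any array was left out. Chgb stayed only without wild-type-labelled array 2, and Pcsk1n joined without knockout-labelled array 1. Chgb also missed this level when every probe set was tested. Leaving out the dimmest 50% of genes removed Scg3, Scg5 and Pcsk1. The causes were not tested. No background values were used, so whether the dim genes stood above background was not tested.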

Other observations

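A further probe set carried the symbols of both Eras and Pcsk1n, so it was assigned to neither. It read 3.14 and 3.36 on the knockout-labelled arrays, against 3.09 and 3.12 on the wild-type-labelled arrays, a log2 difference of 0.15, which compares with 0.33 for the probe set of Pcsk1n alone.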
